A study of Mus musculus with 24 samples.

Results

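The 12 libraries described here, of 24 in the series, are all those of cortex from ciRS-7 knockout (KO) mice: 6 marked PI KO and 6 marked CL KO, chosen by their labels. The labels give CL and PI without spelling them out, and each animal's name appears on 1 library of either kind, so the 12 libraries come from 6 animals. All were males of 3 to 4 months. A monofilament closed their middle cerebral artery for 1 h, and cortex was taken after 1 day of reperfusion. The strain is given as C57BL/6N-Cdr1asem1Nikr for every animal of the series, the wild types (WT) included, and the genotype as ciRS-7 KO. This name denotes 1 edited allele of Cdr1as, so the knockout rests on 1 mutant line. CL KO libraries come from operated animals, and no unoperated or sham animal is among the samples used here. The comparison asked how gene expression in cortex without ciRS-7 differed between PI and CL at 1 day.

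ciRS-7, also called Cdr1as, is a circular RNA abundant in neurons that carries many binding sites for the microRNA miR-7 and takes part in a network with the noncoding RNA Cyrano. Blocking the middle cerebral artery starves cortical neurons of oxygen and glucose, and reperfusion adds oxidative stress. In the first day, astrocytes and microglia around the damaged tissue change from a resting to a reactive state, chaperones and antioxidant genes are induced in stressed cells, and acute-phase, complement and interferon-responsive genes are switched on by cytokines such as those that signal through gp130 and STAT3.

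Expression was deposited as log2 CPM, counts per M reads of the library, for 14338 genes. Steps between low values placed the depth of the CL KO libraries at 6.54 to 10.3 M reads and that of the PI KO libraries at 5.38 to 7.08 M reads, so that 3 reads corresponded to 0.291 to 0.558 CPM. In 100% of genes a group of 6 had equal values at its 2 lowest and its 2 highest places. The ends were taken to have been pulled to the group's quartiles, which was assumed and not tested. Under that assumption the 4 inner values could be solved. Levels below are the lowest, the median and the highest of those 4 recoverable values. Differences are between trimmed means of PI KO and CL KO on the log2 scale, with n = 6 libraries a group, their standard error (SE) and a p-value adjusted over all genes by the method of Benjamini and Hochberg. A gene is called higher or lower at an adjusted p under 0.05.

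Libraries of a group were not alike in the genes that separated PI KO from CL KO. PI KO replicate 4 was 1 of the 2 lowest PI KO libraries in 61.1% of the genes called higher and 1 of the 2 highest in 62.3% of those called lower, against 33.3% if all libraries were alike. PI KO replicate 5 lay at the other end, in the highest pair in 51.8% of genes called higher and in the lowest pair in 45.2% of those called lower. CL KO replicate 6 was in the lowest pair in 56.7% of genes called higher, and over all genes it was in the lowest pair in 44.7% and in the highest pair in 44.8%. Without PI KO replicate 4 the test called 1602 genes, and without CL KO replicate 6 it called 1301.

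**Figure D1:**
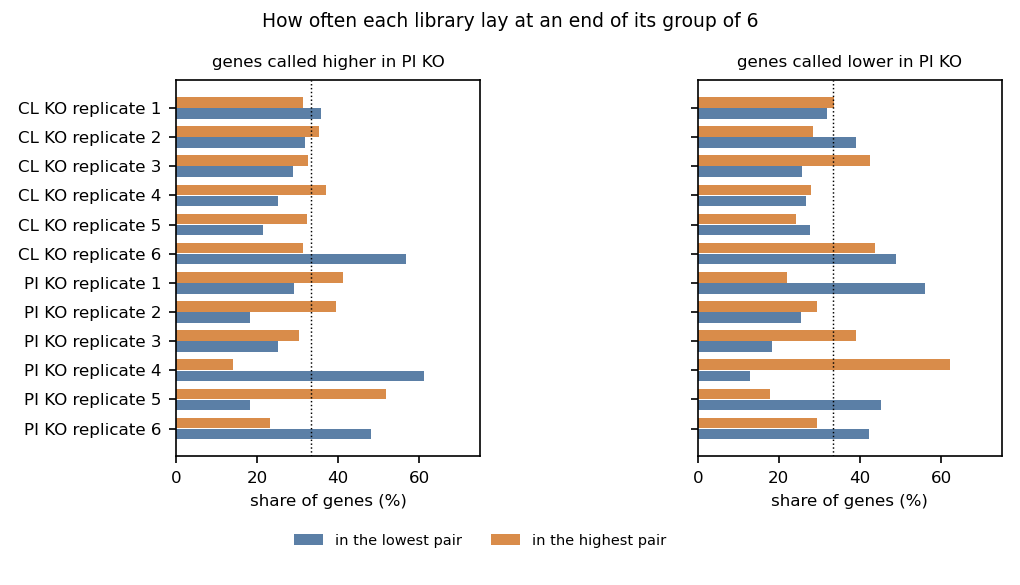
Share of the called genes (horizontal axis, percent) in which each of the 12 libraries was among the 2 lowest (blue) or the 2 highest (orange) of its group of 6, for genes called higher in PI KO on the left and lower on the right. The dotted line marks 33.3%, the share if all libraries were alike, and PI KO replicate 4 reaches 61.1% and 62.3% on the side nearer to CL KO.

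Of 14338 genes, 1440 were called (10.0%), 732 of them higher in PI KO (5.11%) and 708 lower (4.94%). The increases were the larger changes. The median change was 0.53 among genes called higher and -0.36 among genes called lower, and 42 called genes rose by at least 2 on the log2 scale whereas 0 called genes fell by as much. Recoverable values did not overlap between the groups in 26.8% of all genes and in 1437 of the 1440 called genes. A lack of overlap thus adds little to a call. Statements below on groups that overlap or lie apart rest on these recoverable values alone. Those on summed marker levels are the exception and use the deposited values of all 6 libraries, with the ends drawn in. After centring both groups on their median genes, 1606 genes were called and 36.7% of them were higher, against 50.8% as deposited, so the balance of higher and lower calls depends on the scaling. Without PI KO replicate 2 there were 922 calls and without CL KO replicate 5 there were 900, and in every one of the 12 fits that left out 1 library all 1440 genes kept their direction. Limma on the drawn-in values called 6666 genes, and 6759 with the animal as a block, but it reads a spread that the drawing-in had narrowed.

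**Figure D2:**
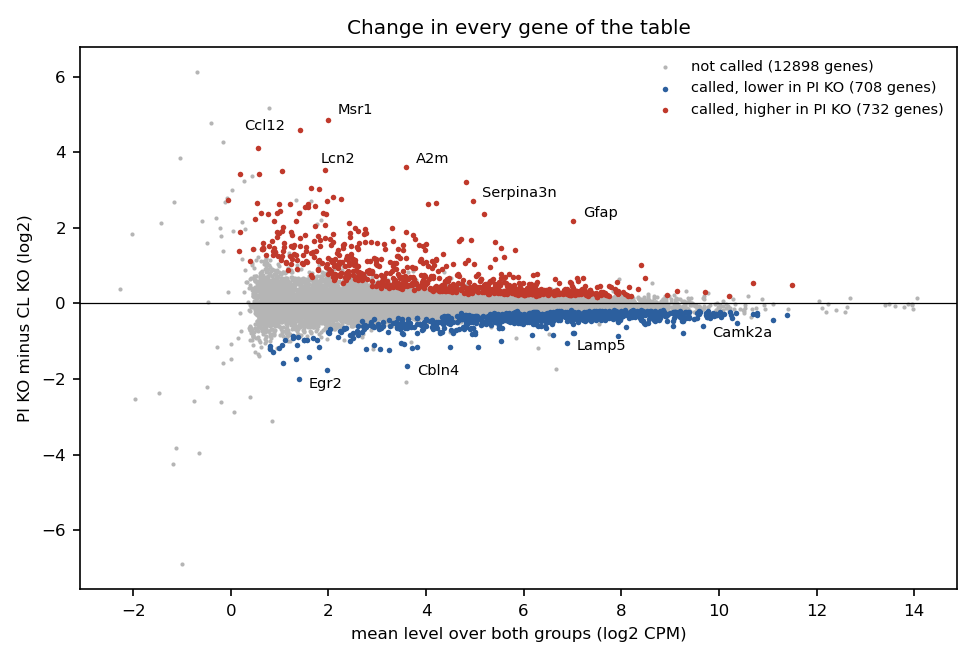
Difference between PI KO and CL KO (vertical axis, log2) against the mean level (horizontal axis, log2 CPM) for 14338 genes, with 732 called higher in red, 708 called lower in blue and the rest in grey. Increases reach farther from 0 than decreases, up to 4.85 for Msr1 against -1.995 for Egr2 among called genes.

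The targeted RNA is not listed in the table of the KO libraries. Neither Cdr1as nor Cdr1, the linear gene of the locus, has a row there, while in the table of the WT libraries Cdr1as stood at 3463, 3766 and 3900 CPM in CL WT. That table was scaled separately, so its levels are not set against those of the KO libraries. The noncoding RNA Cdr1os, made from the same locus, was listed in the KO table at 358, 386 and 413 CPM in CL KO and 277, 296 and 308 CPM in PI KO. It fell by 0.39 there, and values of the groups did not overlap.

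Some general neuron markers were lower in PI KO, by modest amounts. Of 14 general neuron markers 5 were called lower and 0 higher, with a median change of -0.21 against -0.00 for all genes. This count was 3 without CL KO replicate 5. Snap25, a SNARE protein of synaptic vesicle fusion, stood at 2922, 2976 and 3168 CPM in CL KO and 2224, 2468 and 2568 CPM in PI KO, a change of -0.31 (SE 0.066, adjusted p = 0.0112). Every recoverable PI KO value of Snap25 lay under every one of CL KO. Syp, Syt1, Syn1 and Nefl were the other markers called lower, with changes from -0.33 to -0.24. Rbfox3, which encodes the nuclear antigen NeuN, was not called, with 112, 117 and 125 CPM in CL KO and 101, 106 and 111 CPM in PI KO and a change of -0.15 (SE 0.067, adjusted p = 0.174). The summed level of the 14 markers ran from 9450 to 9800 CPM in CL KO and from 8020 to 8770 CPM in PI KO. In bulk tissue, fewer cells of a type and less RNA per cell cannot be told apart.

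Markers of excitatory cortical neurons ranged from clearly lower to near 0. Of 14 listed, 4 were called lower (median -0.23). Lamp5, a membrane protein of upper-layer and some inhibitory neurons, stood at 162, 168 and 180.4 CPM in CL KO and 78.6, 81 and 91.4 CPM in PI KO, which gave -1.03 (SE 0.075, adjusted p = 8.43e-06). No recoverable PI KO value of Lamp5 reached the CL KO values. Camk2a, the kinase of postsynaptic plasticity, stood at 948, 994 and 1058 CPM in CL KO and 641, 669 and 682 CPM in PI KO, a change of -0.59 (SE 0.058, adjusted p = 8.33e-05). Its recoverable values were also apart between the groups. Nrgn (-0.37) and the deep-layer factor Tbr1 (-0.26) were called lower. The layer factors Cux2 (-0.069), Fezf2 (-0.082) and Neurod2 (0.0088) and the vesicular glutamate transporter Slc17a7 (-0.10) were not called.

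GABAergic interneuron markers showed no common direction. Of 13 listed, 2 were called higher and 1 lower, with a median change of 0.01. Gad2, which makes GABA at terminals, was higher, at 181, 209 and 219 CPM in CL KO and 263, 265 and 272 CPM in PI KO, a change of 0.38 (SE 0.074, adjusted p = 0.00652). The related enzyme gene Gad1 was not called, at -0.043 (SE 0.078, adjusted p = 0.791). The neuropeptide gene Npy was called higher (0.33), and Calb1, a calcium buffer of interneurons and upper-layer neurons, was called lower at 145, 152 and 173 CPM in CL KO and 104, 106 and 108 CPM in PI KO, a change of -0.55 (SE 0.073, adjusted p = 0.000625). The groups did not overlap in Gad2 or Calb1, whereas they did in Gad1. Pvalb (-0.42), Sst (0.48) and Vip (-0.27) were not called. The summed level of the 13 markers ran from 920.0 to 965 CPM in CL KO and from 907 to 981 CPM in PI KO, and the groups overlapped.

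Of 8 listed striatal markers 1 was called lower and 0 higher (median 0.08). The change was above 0 in 5 of the 8, among them the dopamine receptor Drd1 (0.12), the signalling protein Ppp1r1b (0.50) and Rgs9 (0.26). None of these 3 was called. The summed level of the 8 genes was nonetheless lower in PI KO, from 224 to 253 CPM in CL KO and from 196 to 220.0 CPM in PI KO. How far the dissected area differed between PI and CL was not tested.

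In astrocytes, genes of the reactive state were higher in PI KO and 3 of the resting state were lower. Among 17 listed genes of reactive astrocytes 14 were called higher and 0 lower, with a median change of 1.82, and between 14 and 15 were called with any 1 library left out. The summed level of these genes ran from 208 to 220.0 CPM in CL KO and from 552 to 752 CPM in PI KO, and PI KO replicates 4 and 6 had the lowest sums of their group, 552.0 and 552.8 CPM. Gfap (chr11:102887336-102900912 in GRCm38), the intermediate filament that defines reactive astrocytes, stood at 54.1, 60.2 and 69.1 CPM in CL KO and 219, 282 and 336 CPM in PI KO, a change of 2.19 (SE 0.16, adjusted p = 8.47e-06). Vim, a second filament protein, stood at 23.5, 24.4 and 25.1 CPM in CL KO and 55.2, 81.8 and 84.4 CPM in PI KO, a change of 1.62 (SE 0.15, adjusted p = 4.57e-05). In both filament genes the groups were widely apart. Nes (1.62), the hyaluronan receptor Cd44 (1.63), the matrix protein Tnc (1.82), Emp1 (1.82), Aspg (1.86) and Cd109 (1.06) also rose. Gap43, which is shared with growing axons, was not called (-0.18).

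Of 14 markers of homeostatic astrocytes 3 were called lower and 1 higher (median -0.12). Gja1, the main gap junction protein of astrocytes, stood at 170.1, 178 and 178 CPM in CL KO and 121, 130.0 and 141 CPM in PI KO, a change of -0.43 (SE 0.068, adjusted p = 0.00185). Glul, glutamine synthetase, stood at 971, 979 and 994 CPM in CL KO and 723, 758 and 799.7 CPM in PI KO, a change of -0.37 (SE 0.053, adjusted p = 0.00091). Neither gene had overlapping groups. Aqp4, the water channel of astrocyte endfeet, went the other way, at 102, 113 and 119 CPM in CL KO and 138, 143 and 169 CPM in PI KO and a change of 0.41 (SE 0.092, adjusted p = 0.014). The glutamate transporters Slc1a2 (-0.23) and Slc1a3 (-0.042) and the lineage gene Aldh1l1 (0.15) were not called.

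Phagocytic genes of microglia were higher in PI KO, and genes of the resting state went both ways. Of 16 listed genes of phagocytic and lysosomal microglia 12 were called higher and 0 lower (median 1.03). This count was 8 without PI KO replicates 2 or 5 or CL KO replicate 5. Msr1 (chr8:39581685-39642673), a scavenger receptor, stood at 0.465, 0.794 and 1.04 CPM in CL KO and 20.4, 20.7 and 24 CPM in PI KO, the largest called change in the table at 4.85 (SE 0.29, adjusted p = 1.46e-06). Its CL KO level amounts to a few reads per library. Cd68, a lysosomal protein of phagocytes (1.25), Spp1 (1.46), Lpl (1.54), the adaptor Tyrobp (1.11) and the Fc receptor genes Fcer1g (1.01) and Fcgr3 (0.96) rose. The Cd68 call was lost without PI KO replicates 1, 3, 4 or 5 or CL KO replicates 2, 3, 4 or 5. That of Lpl was lost without PI KO replicates 2, 3 or 5 or CL KO replicates 4, 5 or 6. Tyrobp lost its call without PI KO replicates 1, 2, 3 or 5 or CL KO replicates 1 or 5, and Fcer1g without PI KO replicate 2 or CL KO replicates 2, 3 or 4. Trem2, the receptor that signals through Tyrobp, was not called (0.33). Among 12 homeostatic markers 3 were called higher and 1 lower (median 0.10). Leaving out PI KO replicate 2 or CL KO replicates 2 or 3 gave 1. P2ry12, the ADP receptor of resting microglia, stood at 22.1, 24.8 and 30 CPM in CL KO and 13.9, 14.8 and 16.4 CPM in PI KO, a change of -0.75 (SE 0.13, adjusted p = 0.00303). Fcrls went up from 6.19, 7.15 and 7.93 CPM in CL KO to 20.5, 25.6 and 29.3 CPM in PI KO, a change of 1.82 (SE 0.17, adjusted p = 4.13e-05). The fractalkine receptor Cx3cr1 was higher too, at 12.2, 13.3 and 14.9 CPM in CL KO and 16.9, 21.2 and 25 CPM in PI KO with a change of 0.64 (SE 0.15, adjusted p = 0.0194). The 3 homeostatic genes thus moved apart, while Tmem119 was not called (-0.31, adjusted p = 0.321).

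Markers of blood-borne leukocytes gave little to measure. Of 12 neutrophil markers 1 was listed, Csf3r, which was not called (-0.34), and of 12 lymphocyte markers 1 was listed, Trbc2 (-0.01, not called). Among 6 listed of 12 monocyte and macrophage markers 3 were called higher, namely Lyve1 (1.40), F13a1 (0.86) and Mrc1 (0.54), which mark macrophages of vessels and meninges. Without PI KO replicate 3 or CL KO replicates 1, 4, 5 or 6, 1 were called. The haemoglobin genes, a sign of blood left in the tissue, were not called in any of 4 listed (0 by the trimmed-mean test, 0 with an unadjusted p under 0.05 and 0 by limma on the drawn-in values). Hbb-bs stood at 5.56, 17.6 and 32.5 CPM in CL KO and 21.3, 28.2 and 33.8 CPM in PI KO, and the 4 genes summed to from 10.8 to 61.8 CPM in CL KO and from 35.4 to 51.4 CPM in PI KO. The range in PI KO lay inside that of CL KO.

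Few oligodendrocyte and vascular markers were called. None of 13 myelin genes was called by the trimmed-mean test (0 genes, median -0.07), while 1 had an unadjusted p under 0.05 and 6 were called by limma on the drawn-in values. Mbp stood at 622, 799.7 and 949 CPM in CL KO and 630.0, 663 and 717 CPM in PI KO, with overlapping groups. Of 12 markers of oligodendrocyte precursors 1 was called lower, the proteoglycan Bcan (-0.41), which astrocytes also make. The number called was 0 without PI KO replicates 2, 3, 5 or 6 or CL KO replicates 2, 3, 4, 5 or 6 and 2 without PI KO replicate 4. Of 15 endothelial markers 2 were called lower, both transporters of the blood-brain barrier. Slco1a4 stood at 47.7, 50.7 and 53.2 CPM in CL KO and 34, 36.5 and 38.2 CPM in PI KO, a change of -0.48 (SE 0.078, adjusted p = 0.00234), and Abcb1a changed by -0.37 (SE 0.11, adjusted p = 0.0464). The endothelial count was 1 without PI KO replicates 1, 2, 3, 4 or 5 or CL KO replicates 1, 2, 4 or 5. Cldn5, the tight junction protein, was not called, at 2.66, 3.11 and 4.58 CPM in CL KO and 2.6, 3.45 and 4.11 CPM in PI KO. None of 7 pericyte and smooth muscle markers was called by the trimmed-mean test (0 genes, median -0.03), while 2 had an unadjusted p under 0.05 and 3 were called by limma on the drawn-in values. Among 10 fibroblast markers Dcn was called higher (1.11) and Igf2 lower (-0.77). Of 10 choroid plexus and ependymal markers 2 were listed, Enpp2, which oligodendrocytes also express and which fell at 326, 338 and 353 CPM in CL KO and 216, 221 and 224 CPM in PI KO (-0.62 (SE 0.052, adjusted p = 2.19e-05)), and Kl, which was not called (-0.51).

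**Figure D3:**
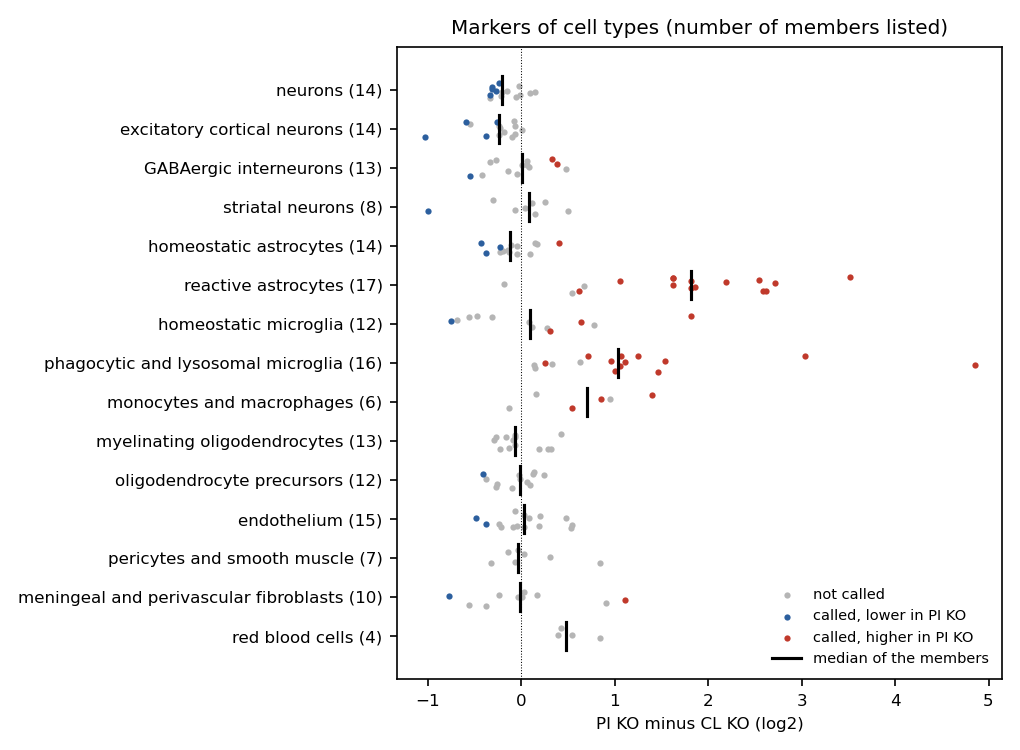
Difference between PI KO and CL KO (horizontal axis, log2) of each listed member of 15 marker lists, red where called higher, blue where called lower and grey where not called, with the median of each list as a black bar and the number listed in parentheses. Reactive astrocyte genes have a median of 1.82 and phagocytic microglia genes of 1.03, while the other neural and vascular lists have medians between -0.23 and 0.10.

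Acute-phase proteins are secreted defence proteins induced by the gp130 and STAT3 route. Of 5 listed of 18, 4 were called higher, and this list shares Lcn2, Serpina3n and Cp with others above and below. Serpina3n (chr12:104406729-104414329), a serine protease inhibitor of reactive astrocytes, stood at 11.2, 12.2 and 12.7 CPM in CL KO and 68.9, 81.6 and 88 CPM in PI KO, a change of 2.72 (SE 0.11, adjusted p = 3.15e-08), the smallest p of the table. Lcn2 (chr2:32384633-32388252), lipocalin, which binds bacterial siderophores, stood at 0.952, 1.12 and 1.38 CPM in CL KO and 11.7, 13.2 and 13.9 CPM in PI KO, a change of 3.52 (SE 0.20, adjusted p = 1.46e-06). A2m (chr6:121635376-121679227), the protease trap alpha-2-macroglobulin, stood at 3.01, 3.45 and 3.97 CPM in CL KO and 27.2, 47.3 and 50.9 CPM in PI KO, a change of 3.60 (SE 0.23, adjusted p = 3.73e-06). None of these 3 genes had overlapping groups. Ceruloplasmin, Cp, rose by 0.62, and Itih3 was not called (0.21).

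Along the gp130 and STAT3 route, Osmr, Il6st, Stat3 and the feedback gene Socs3 rose while most other members did not pass the test. Of 15 listed genes 5 were called higher and 0 lower (median 0.14). Osmr (chr15:6813577-6874969), the oncostatin M receptor that pairs with gp130, stood at 6.19, 6.64 and 7.02 CPM in CL KO and 28.7, 42.6 and 52 CPM in PI KO, a change of 2.62 (SE 0.20, adjusted p = 1.1e-05). Il6st, gp130 itself, rose only slightly, at 69, 69.4 and 76.9 CPM in CL KO and 81.4, 86.5 and 89.1 CPM in PI KO and 0.27 (SE 0.069, adjusted p = 0.0272). Stat3 stood at 26.9, 28.1 and 30.9 CPM in CL KO and 56.5, 66.6 and 69.6 CPM in PI KO, a change of 1.18 (SE 0.10, adjusted p = 1.99e-05). Socs3 (chr11:117966079-117970047), the inhibitor that STAT3 induces, stood at 1.36, 1.56 and 2.6 CPM in CL KO and 6.96, 8.64 and 11.3 CPM in PI KO, a change of 2.35 (SE 0.29, adjusted p = 0.000423). Osmr, Stat3 and Socs3 were clearly apart between the groups. The kinases Jak1 (0.16) and Jak2 (0.034) and the receptors Lifr (-0.0042), Il6ra (-0.13) and Cntfr (-0.41) were not called. Among 16 C/EBP and KLF factors, Cebpd, a partner of STAT3 in the acute-phase response, stood at 3.49, 3.59 and 3.66 CPM in CL KO and 11.9, 12.8 and 14.5 CPM in PI KO, a change of 1.86 (SE 0.14, adjusted p = 8.43e-06), and Cebpb (0.75) and Klf6 (0.28) also rose, while Klf13 fell (-0.46). The call count was 1 when PI KO replicates 1, 2 or 3 or CL KO replicates 3 or 5 was left out.

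Several cytokine ligands and receptors rose. Of 14 listed of 23, 8 were called higher and 0 lower (median 0.91), and between 7 and 8 with any 1 library left out. Il33, the nuclear alarmin of astrocytes and oligodendrocytes, stood at 13, 14.8 and 15.2 CPM in CL KO and 36.4, 45.6 and 55 CPM in PI KO, a change of 1.65 (SE 0.16, adjusted p = 6.02e-05). Il1a, a ligand of the interleukin-1 receptor, stood at 0.156, 0.413 and 0.548 CPM in CL KO and 3.01, 3.71 and 4.72 CPM in PI KO, at or near the limit of 3 reads in CL KO, and its fitted change was 3.43 (SE 0.53, adjusted p = 0.00166). Both ligands had groups that did not overlap. The receptors Il1r1 (1.21), Il4ra (1.49), Il13ra1 (1.57), Tnfrsf1a (1.96) and Tnfrsf1b (1.24) and the growth factor Csf1 (0.62) rose, and the interferon-gamma receptor genes Ifngr1 (0.36) and Ifngr2 (0.094) were not called. The Tnfrsf1b call was lost without PI KO replicates 2, 3, 5 or 6 or any 1 CL KO library. Of 9 Toll-like receptors and adaptors 5 were called higher. When PI KO replicates 2, 3 or 5 or CL KO replicates 3, 4 or 5 was left out, 3 passed. Tlr2, a receptor of lipoproteins and damage signals, stood at 0.548, 0.678 and 0.812 CPM in CL KO and 2.79, 3.23 and 5.49 CPM in PI KO, a change of 2.40 (SE 0.36, adjusted p = 0.00145). Cd14, its co-receptor, stood at 0.544, 1.57 and 1.65 CPM in CL KO and 6.12, 11.2 and 13.1 CPM in PI KO, a change of 3.04 (SE 0.46, adjusted p = 0.00152). Myd88, the adaptor, rose by 1.11 and Tlr4 by 0.66. Of 14 NF-kappaB subunits and inhibitors 1 was called, the target Birc3 (1.34), and Rela (0.44), Nfkb1 (0.14) and Nfkbia (0.16) were not.

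Among 8 chemokines listed of 21, 3 rose and 1 fell. Ccl12 (chr11:82101845-82103400), a ligand of the monocyte receptor CCR2, stood at 0.41, 0.527 and 0.806 CPM in CL KO and 7.42, 13.6 and 21.9 CPM in PI KO, a change of 4.58 (SE 0.42, adjusted p = 4.57e-05). Ccl9 stood at 0.817, 1.12 and 1.34 CPM in CL KO and 3.71, 10.1 and 16.7 CPM in PI KO, a change of 3.04 (SE 0.53, adjusted p = 0.00367), and the related Ccl6 rose by 2.22. The CL KO values of Ccl12 and Ccl9 correspond to a few reads per library. Cx3cl1, the neuronal ligand of Cx3cr1, fell by 0.43. Cxcl12 (-0.40) and Cxcl14 (-0.19) were not called.

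Complement genes rose at several steps of the cascade. Of 17 listed, 11 were called higher and 0 lower (median 0.75), with 9 to 12 called when any 1 library was left out. C1qb, a chain of the initiating C1q complex that microglia make, stood at 11.7, 12.4 and 14 CPM in CL KO and 23.9, 24.6 and 28.3 CPM in PI KO, a change of 1.01 (SE 0.11, adjusted p = 0.000201), and C1qa (0.79) and C1qc (0.75) rose with it. C4b, the next component, stood at 6.78, 9.06 and 9.23 CPM in CL KO and 21, 23.9 and 31.5 CPM in PI KO, a change of 1.55 (SE 0.18, adjusted p = 0.000302). For both C1qb and C4b the recoverable PI KO values were all above those of CL KO. The receptors C5ar1 (2.17), C3ar1 (1.48), Itgam (0.95) and Itgb2 (1.08) rose, as did the inhibitor Serping1 (0.80).

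Interferon-stimulated genes made up one of the most uniform lists, with a change above 0 in 21 of 22 listed members of 35. Of these, 17 were called higher and 0 lower, with a median change of 1.20, and 16 to 19 were called with any 1 library left out. Ifit1 (chr19:34640871-34650009), which binds viral RNA caps, stood at 1.47, 2 and 2.03 CPM in CL KO and 6.94, 7.92 and 8.66 CPM in PI KO, a change of 2.08 (SE 0.21, adjusted p = 7.72e-05). Ifit3 stood at 4.17, 4.5 and 5.17 CPM in CL KO and 12.9, 13.9 and 15 CPM in PI KO, a change of 1.60 (SE 0.14, adjusted p = 2.55e-05). The guanylate-binding protein genes Gbp2 (chr3:142620602-142638008) and Gbp3 stood out within the list. Gbp2 stood at 1.48, 1.62 and 1.75 CPM in CL KO and 9.45, 11.2 and 13.8 CPM in PI KO, a change of 2.81 (SE 0.20, adjusted p = 6.31e-06). Gbp3 stood at 1.48, 1.62 and 1.72 CPM in CL KO and 7.78, 8.54 and 9.03 CPM in PI KO, a change of 2.40 (SE 0.18, adjusted p = 8.43e-06). In these 4 genes no recoverable PI KO value came near the CL KO values. The GTPases Iigp1 (3.51) and Igtp (1.44), the membrane proteins Ifitm1 (2.46), Ifitm2 (1.19) and Ifitm3 (1.57), and the factor Irf9 (1.11) rose. Of 9 antigen presentation genes 2 rose, the peptide transporter Tap1 (1.51) and H2-K1 (0.79), and B2m was not called (-0.10). Antigen presentation gave 1 without PI KO replicates 1, 2 or 5 or CL KO replicates 1, 2, 3 or 5.

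Interferon-stimulated genes are classically read from a tandem GAAA element bound by IRF and STAT factors. It was searched as GAAA, any 2 bases and GAAA again, on both strands of RefSeq promoter windows (250 bases before to 50 after the start, GRCm38.p6), and it was found in 8 of the 12 called members with a window and in 10 of the 17 listed members with one, against 3.56% of the 10385 genes of the table with a window. The matches of the 4 genes above are shown because they carry the element in this group, with the matched letters in capitals, 5′ to 3′ along the gene. All matches shown lie on the opposite strand, and a match is a description of the letters only.
Ifit1 (chr19:34640770-34640828, plus strand): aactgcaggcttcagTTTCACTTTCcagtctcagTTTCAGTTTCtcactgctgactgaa
Ifit3 (chr19:34583358-34583431, plus strand): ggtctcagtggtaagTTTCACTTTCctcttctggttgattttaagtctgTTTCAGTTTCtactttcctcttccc
Gbp2 (chr3:142620589-142620628, plus strand): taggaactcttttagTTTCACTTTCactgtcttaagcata
Gbp3 (chr3:142559984-142560029, plus strand): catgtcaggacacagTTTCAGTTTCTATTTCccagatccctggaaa

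The largest increases among chaperones were in stress-inducible members. Of 34 HSP and DNAJ genes 13 were called higher and 1 lower (median 0.28). With PI KO replicates 2, 3 or 5 or CL KO replicates 1, 2, 3, 4, 5 or 6 left out, 5 to 8 were called. Hspa1b (chr17:34956436-34959238), the inducible Hsp70, stood at 7.11, 9.47 and 12 CPM in CL KO and 41, 81 and 204 CPM in PI KO, a change of 3.20 (SE 0.54, adjusted p = 0.00302). Its near-identical neighbour Hspa1a stood at 6.34, 7.41 and 8.19 CPM in CL KO and 23, 41.1 and 117 CPM in PI KO, a change of 2.66 (SE 0.53, adjusted p = 0.00733), and how reads were split between the copies is not known. Hspb1 (chr5:135887919-135889563), the small chaperone Hsp27, stood at 0.892, 1.24 and 1.75 CPM in CL KO and 4.08, 8.07 and 10.6 CPM in PI KO, a change of 2.55 (SE 0.41, adjusted p = 0.00199). All recoverable PI KO values of these 3 genes were above those of CL KO, and they spread widely among PI KO libraries. Hsph1, an exchange factor of Hsp70, stood at 226, 237 and 249.7 CPM in CL KO and 313, 482 and 746 CPM in PI KO, a change of 1.03 (SE 0.27, adjusted p = 0.0336). Hspe1, the mitochondrial co-chaperonin Hsp10, stood at 26.9, 28.1 and 31.1 CPM in CL KO and 41.9, 54.3 and 79.2 CPM in PI KO, a change of 0.97 (SE 0.22, adjusted p = 0.0144), and its partner Hspd1 rose by 0.68. The collagen chaperone Serpinh1 (1.17) and the cytosolic Hsp90aa1 (0.53) rose. The constitutive Hspa8 (0.21) and the reticulum chaperone Hspa5 (0.32) were not called, and Hspa12a fell (-0.29).

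The heat shock element, the binding site of HSF1, is built of inverted GAA units. Searched as GAANNTTC or TTCNNGAA, which are their own reverse complements, it was present in 8 of 10 called chaperone genes with a window, in 12 of 27 listed ones and in 13.9% of all genes with a window. The stretches of the inducible members are shown with the matches in capitals. Hspa1a holds the same 38 bases as Hspa1b, and adjoining matches share letters in Hspe1 and Hsph1.
Hspb1 (chr5:135887787-135887844, plus strand): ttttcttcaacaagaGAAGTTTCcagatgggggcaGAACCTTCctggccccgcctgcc
Hspa1b (chr17:34959320-34959357, minus strand): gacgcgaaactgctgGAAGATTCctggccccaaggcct
Hsph1 (chr5:149636287-149636384, minus strand): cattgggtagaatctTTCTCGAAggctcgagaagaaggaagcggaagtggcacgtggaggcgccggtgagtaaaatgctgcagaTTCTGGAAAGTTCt
Hspe1 (chr1:55088044-55088091, plus strand): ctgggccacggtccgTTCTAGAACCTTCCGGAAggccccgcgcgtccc

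Metallothioneins, which bind zinc and copper, split by isoform. Mt2 stood at 14.8, 15.6 and 18.8 CPM in CL KO and 78.3, 82.2 and 87.3 CPM in PI KO, a change of 2.35 (SE 0.10, adjusted p = 5.36e-08). Mt1 stood at 27.8, 31.8 and 35.3 CPM in CL KO and 67.7, 73.9 and 83.2 CPM in PI KO, a change of 1.24 (SE 0.11, adjusted p = 3.42e-05). Mt3, the isoform typical of neurons and astrocytes, stood at 18.9, 19.2 and 21.7 CPM in CL KO and 17.9, 20.1 and 21 CPM in PI KO and was not called (0.0042 (SE 0.10, adjusted p = 0.987)). The groups were apart in Mt1 and Mt2 and overlapped in Mt3. The zinc importer Slc39a14 rose (0.60), and Slc30a3, which loads zinc into glutamatergic vesicles, stood at 37.5, 39.1 and 40.1 CPM in CL KO and 24.2, 24.8 and 26.5 CPM in PI KO, a change of -0.64 (SE 0.075, adjusted p = 0.000302). The core of the metal response element, searched as TGCGCNC or TGCACNC on both strands, was in 5 of 6 genes of this list with a window but also in 41.8% of all genes with one, so it is common. Mt1 and the uncalled Mt3 are shown side by side, with 3 matches in Mt1 and 1 in Mt3.
Mt1 (chr8:94179051-94179130, plus strand): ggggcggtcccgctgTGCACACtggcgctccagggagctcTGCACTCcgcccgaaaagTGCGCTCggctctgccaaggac
Mt3 (chr8:94152619-94152655, plus strand): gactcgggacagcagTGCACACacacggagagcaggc

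All 20 listed genes of the NRF2 oxidative stress programme had a change above 0, and 8 were called higher (median 0.28). This count was 4 to 5 without PI KO replicates 2 or 5 or CL KO replicate 3. Hmox1 (chr8:75093621-75100589), haem oxygenase, which opens the haem ring and frees its iron, stood at 1.36, 1.98 and 2.13 CPM in CL KO and 7.23, 13.1 and 19.3 CPM in PI KO, a change of 2.76 (SE 0.35, adjusted p = 0.000452). Srxn1, which repairs oxidised peroxiredoxins, stood at 55, 56.5 and 57.7 CPM in CL KO and 91.9, 95.5 and 98.2 CPM in PI KO, a change of 0.76 (SE 0.06, adjusted p = 1.47e-05). Hmox1 varied widely among PI KO libraries and Srxn1 hardly at all, and neither overlapped with CL KO. The cystine transporter Slc7a11 (0.78), Txnrd1 (0.58), Gclm (0.32) and the factor itself, Nfe2l2 (0.62), rose, and Nqo1 was not called (0.44). In the promoter windows, TGACNNNGC, the core of the antioxidant response element, was present in 5 of 7 called members, 7 of 16 listed members and 16.6% of all genes with a window. By contrast, the STAT site, searched as TTCNNNGAA, was in 0 of 4 listed acute-phase genes with a window. It was in 2 of 13 listed genes of the gp130 and STAT3 route and in 8.1% of all genes with a window. Among 14 iron genes 5 rose. Trf, transferrin, stood at 27.7, 35.5 and 41.5 CPM in CL KO and 78.6, 92 and 109 CPM in PI KO, a change of 1.41 (SE 0.18, adjusted p = 0.000452), and the ferritin light chain Ftl1 rose by 0.44, while the transferrin receptor Tfrc (0.16) and the exporter Slc40a1 (-0.61) were not called. Of 29 genes of reticulum stress and the integrated stress response 7 rose, led by Atf5 (0.90), Shmt2 (0.76) and Slc3a2 (0.55). Leaving out PI KO replicates 2, 3 or 5 or CL KO replicates 1, 2, 3, 4, 5 or 6 gave 2 to 4. Atf4 (0.20) and Ddit3 (0.062) were not called.

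Ribosomal and proteasomal genes that were called rose by small amounts. Of 84 cytosolic ribosomal protein genes 83 had a change above 0 and 41 were called higher, 0 lower (median 0.24). Without PI KO replicates 2, 3 or 5 or CL KO replicates 2 or 3, 19 to 27 were called. With both groups centred on their median genes, 27 were called higher. Rplp0, a protein of the ribosomal stalk, stood at 56.7, 65 and 69.8 CPM in CL KO and 86.1, 96.1 and 102 CPM in PI KO, a change of 0.57 (SE 0.10, adjusted p = 0.00278), with groups apart. Ribosomal genes have many near-identical copies, so their reads are uncertain. Of 78 mitochondrial ribosomal genes 4 were called higher (median 0.11), a share of 5.13% that was near the 5.11% of all genes. This count was 1 without PI KO replicate 3 and 2 without PI KO replicates 2 or 5 or CL KO replicates 2, 3 or 5. Of 39 proteasome subunits 38 had a change above 0 and 14 were called higher (median 0.21). Psme2, of the interferon-inducible activator, stood at 5.9, 6.88 and 7.79 CPM in CL KO and 11, 11.9 and 13 CPM in PI KO, a change of 0.81 (SE 0.15, adjusted p = 0.00485), more than any other subunit called.

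Few genes of energy metabolism were called. Of 78 nuclear-encoded respiratory chain genes 1 was called higher (Ndufc2, 0.23), and of 13 mitochondrially encoded transcripts 0 were called, all with changes below 0, from -0.18 for mt-Nd6 to -0.0097 for mt-Co2. Of those 13, 1 had an unadjusted p under 0.05 and 2 were called by limma on the drawn-in values. Respiratory chain genes called numbered 0 without PI KO replicates 2, 3 or 6 or CL KO replicates 1, 2, 4 or 5. Among 19 glycolytic genes 1 rose, Ldha (0.46), and Gapdh was not called, at 398, 457 and 470.3 CPM in CL KO and 415, 459 and 518 CPM in PI KO. Among 21 HIF-1 targets 3 rose, among them Ldha and Pdk1 (0.25). The call count was 5 when PI KO replicate 4 was left out. It was 2 without PI KO replicates 5 or 6 or CL KO replicates 1, 3, 4, 5 or 6, and the Pdk1 call was lost in each of those fits. A prior variance without a trend and median centring also gave 2. Vegfa, the best known target, stood at 22.2, 24.8 and 26 CPM in CL KO and 23.3, 24.3 and 25.4 CPM in PI KO and was not called (-0.0065 (SE 0.091, adjusted p = 0.977)). Its groups overlapped.

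Cell death and growth arrest genes rose in part. Of 22 listed cell death genes 6 were called higher, among them Pycard, the inflammasome adaptor (1.92), Pmaip1, which encodes Noxa (1.28), and Bid (0.70). The Pmaip1 call was lost without PI KO replicates 2, 3, 5 or 6 or any 1 CL KO library. Bax (0.48) was not called. Among 15 p53 targets and GADD45 genes 4 rose. When PI KO replicates 2, 3 or 5 or CL KO replicates 1, 3, 4 or 5 was left out, 2 passed. Cdkn1a (chr17:29090976-29100727), the cell cycle inhibitor p21, stood at 10.1, 12.5 and 14.3 CPM in CL KO and 23.4, 28.4 and 31.9 CPM in PI KO, a change of 1.18 (SE 0.16, adjusted p = 0.000732), and Gadd45b rose by 0.99. The recoverable values of Cdkn1a in PI KO were all above those of CL KO. Mdm2 was not called (0.31). Of 15 replication genes and G1 cyclins 3 rose, the helicase subunits Mcm3 (1.37) and Mcm6 (0.88) and the cyclin Ccnd1 (0.61), and Mki67 was not called (0.52).

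Enzymes that remodel the extracellular matrix and their inhibitors were prominent among the increases. Of 20 listed 8 were called higher and 0 lower. With PI KO replicates 2, 3 or 5 or CL KO replicate 5 left out, 5 were called. Timp1, an inhibitor of metalloproteinases, stood at 0.812, 1.41 and 2.07 CPM in CL KO and 7.04, 8.09 and 9.52 CPM in PI KO, a change of 2.59 (SE 0.34, adjusted p = 0.000608). Adamts1, which cleaves proteoglycans, stood at 12.6, 15.1 and 15.9 CPM in CL KO and 35.4, 49.9 and 57 CPM in PI KO, a change of 1.70 (SE 0.17, adjusted p = 9.09e-05). Neither had overlapping groups. Adamts9 (2.01) and Adam8 (1.59) rose. Of 19 glycoproteins and hyaluronan genes 6 rose and 2 fell. Lox, which crosslinks collagen, stood at 1.04, 1.22 and 1.27 CPM in CL KO and 5.63, 7.01 and 8.16 CPM in PI KO, a change of 2.54 (SE 0.23, adjusted p = 3.67e-05), and Thbs1 rose by 1.79, while Sparcl1 (-0.25) and Bcan (-0.41) fell. Of the glycoproteins called lower there was 1 without PI KO replicates 2, 3, 5 or 6 or CL KO replicates 1, 2, 3, 4, 5 or 6. Among 27 collagens, Col5a3 rose (1.47), Col24a1 (-0.79) and Col19a1 (-0.55) fell, and Col1a1 was not called (0.17). Collagens called lower numbered 1 without PI KO replicates 1, 2 or 3 or CL KO replicates 1, 3 or 4, and those called higher 2 without PI KO replicates 4 or 6 or CL KO replicates 3 or 5. In the laminin and integrin list of 27, the cortical laminin Lamc3 fell, at 2.75, 3.94 and 4.05 CPM in CL KO and 0.993, 1.13 and 1.79 CPM in PI KO and -1.57 (SE 0.31, adjusted p = 0.00793). Of 18 annexins, S100 proteins and galectins 7 rose, with S100a16 (1.18), Anxa2 (1.02) and Lgals1 (0.92) in front. This count was 4 without PI KO replicate 2. On the endothelial surface, Icam1 (1.44) and Thbd (0.68) rose and Vcam1 was not called (0.23). The Icam1 call was lost without any 1 PI KO library or CL KO replicates 1, 2, 3 or 5. That of Thbd was lost without PI KO replicates 1, 2, 3, 5 or 6 or CL KO replicates 1, 2, 4 or 6. Of 11 genes of coagulation, fibrinolysis and adhesion 4 were called higher. That count was 2 without PI KO replicates 1, 2, 3 or 5 or CL KO replicates 1 or 2.

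Lipid genes changed in droplets and synthesis. Plin2, which coats lipid droplets, stood at 2.03, 2.54 and 2.69 CPM in CL KO and 4.82, 7.6 and 9.28 CPM in PI KO, a change of 1.55 (SE 0.26, adjusted p = 0.00307), and Lcat (0.88) and Apod (0.67) also rose. The main brain apolipoprotein, Apoe, fell by 0.30, and the efflux pump Abca1 was not called (0.15). Of 4 genes of lipid efflux and droplets called higher the count was 2 without PI KO replicate 2 or CL KO replicates 4 or 5, and Apoe was no longer called without CL KO replicates 2, 4 or 5. Of 21 genes of cholesterol synthesis and uptake 7 were called higher, among them Lss at 0.42 (median 0.21). Leaving out PI KO replicates 2 or 6 or CL KO replicates 1, 3, 4, 5 or 6 gave 2 to 4.

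**Figure D4:**
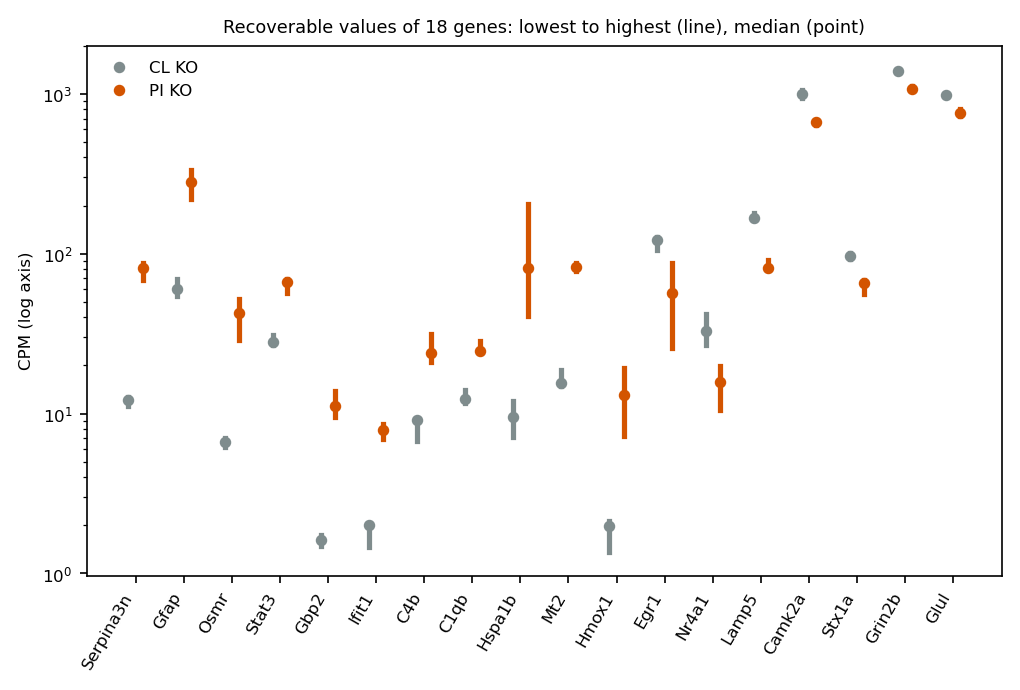
CPM (log axis) of 18 genes in CL KO (grey) and PI KO (orange). Lines run from the lowest to the highest recoverable value of 6 libraries and points mark the median. Only in Egr1 among these genes was the difference not called.

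Immediate early transcription factors, which neurons switch on within minutes of firing, were called lower in a minority. Of 18 listed 6 were called lower and 1 higher (median -0.66). Between 4 and 8 were called lower with any 1 library left out. Egr2 (chr10:67535475-67542188) stood at 3.99, 5.38 and 6.75 CPM in CL KO and 0.921, 1.21 and 2.31 CPM in PI KO, a change of -1.995 (SE 0.37, adjusted p = 0.00504), the largest fall of any called gene. Nr4a1 (chr15:101254269-101274795), an orphan nuclear receptor, stood at 26.9, 32.8 and 42.3 CPM in CL KO and 10.6, 15.7 and 19.9 CPM in PI KO, a change of -1.14 (SE 0.24, adjusted p = 0.00979), and Nr4a2 stood at 13.3, 13.7 and 18.1 CPM in CL KO and 3.81, 6.12 and 10.3 CPM in PI KO, a change of -1.24 (SE 0.32, adjusted p = 0.0312). These 3 genes had no overlap between groups, but the Nr4a2 call was lost without PI KO replicates 2 or 3 or any 1 CL KO library. Egr1 stood at 105, 122 and 127 CPM in CL KO and 25.9, 57 and 87.3 CPM in PI KO and just missed the threshold (-1.19 (SE 0.36, adjusted p = 0.056)), although its recoverable values did not overlap. Egr3 (-0.82), Nr4a3 (-0.78) and Fosl2 (-0.71) fell. The Nr4a3 call was lost without PI KO replicates 1, 2, 5 or 6 or CL KO replicates 2, 3, 4 or 5. Fos was not called, at 18.4, 25.3 and 27.2 CPM in CL KO and 12.9, 19 and 22.4 CPM in PI KO, and its groups overlapped. Jun went the other way, at 25.3, 28.3 and 30.1 CPM in CL KO and 35.9, 37.7 and 38.8 CPM in PI KO and 0.42 (SE 0.087, adjusted p = 0.00907). Among 15 listed factors with a promoter window, 1 held the cAMP response element TGACGTCA and 2 the CArG box. The shares of all genes with a window were 3.62% and 1.57%. Of the 5 called lower with a window, 0 held the cAMP response element and 1 the CArG box. Of 12 MAP kinase phosphatase and Sprouty genes 1 was called lower, Dusp8 (-0.31), and 0 without PI KO replicate 2 or CL KO replicates 1, 2, 3, 4, 5 or 6.

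The effector genes that follow neuronal activity went both ways. Of 20, 4 were called higher and 5 lower (median 0.09). Nptx2, which clusters AMPA receptors, stood at 13.7, 16.2 and 20.1 CPM in CL KO and 24.5, 35.2 and 42.3 CPM in PI KO, a change of 1.04 (SE 0.22, adjusted p = 0.0106). Ptgs2, the inducible cyclooxygenase, stood at 36.1, 44.2 and 48.9 CPM in CL KO and 63.9, 66.6 and 83.6 CPM in PI KO, a change of 0.69 (SE 0.13, adjusted p = 0.00647). In both, PI KO lay above CL KO without overlap. Homer1, a scaffold of metabotropic receptors, stood at 588, 678 and 694 CPM in CL KO and 365, 439 and 500.1 CPM in PI KO, a change of -0.60 (SE 0.11, adjusted p = 0.00525). Cbln4 (chr2:172036233-172043466), a synaptic organiser, stood at 20.2, 21.3 and 24.5 CPM in CL KO and 4.82, 7.12 and 9.36 CPM in PI KO, a change of -1.65 (SE 0.23, adjusted p = 0.000856). These 2 genes lay below CL KO without overlap. Scg2 (0.45) and Sorcs3 (0.40) rose, and Arc (-0.50) and Bdnf (0.52) were not called.

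Presynaptic genes were lower over most of the release machinery. Of 24, 13 were called lower and 1 higher (median -0.24). Without PI KO replicate 2 or CL KO replicates 4 or 5, 7 were called. Stx1a, a SNARE protein of the plasma membrane, stood at 92.9, 96.3 and 101 CPM in CL KO and 56.3, 66 and 68.1 CPM in PI KO, a change of -0.59 (SE 0.083, adjusted p = 0.000856). Unc13a, which primes vesicles, stood at 157, 162 and 172 CPM in CL KO and 114, 116 and 119.8 CPM in PI KO, a change of -0.49 (SE 0.058, adjusted p = 0.000302). Neither overlapped between the groups. Cplx2 (-0.46), Bsn (-0.35), Rims1 (-0.34) and Vamp2 (-0.33) fell, and the vesicle protein Sv2c rose (0.40). For higher calls the count was 0 without PI KO replicates 1, 3 or 6 or CL KO replicates 1, 3 or 5.

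On the postsynaptic side, 11 of 20 scaffold and CaMKII genes were called lower and 0 higher (median -0.28). The call count was 7 when CL KO replicates 4 or 5 was left out. Beside Homer1 and Camk2a these included the CaMKII inhibitor Camk2n1 (-0.53), Shank1 (-0.47) and Dlgap3 (-0.45), whereas Dlg4, which encodes PSD-95, was not called (-0.20). All 6 listed NMDA receptor subunits had a negative change and 2 were called. Grin2b stood at 1370, 1398 and 1418 CPM in CL KO and 1053, 1071 and 1116 CPM in PI KO, a change of -0.37 (SE 0.048, adjusted p = 0.000507), and Grin2a fell by 0.30, while the obligatory subunit Grin1 was not called (-0.22). Of 14 AMPA and kainate receptor genes 4 were called lower. When PI KO replicates 1, 2, 3 or 5 or CL KO replicates 3, 4 or 5 was left out, 1 to 2 passed. Gria3 stood at 499, 505 and 526 CPM in CL KO and 354, 375 and 400.0 CPM in PI KO, a change of -0.44 (SE 0.06, adjusted p = 0.000814), and Gria2, which makes the channel impermeable to calcium, fell by 0.26. Grin2b and Gria3 had groups that did not overlap. Grm3 (-0.37) and Grm7 (-0.35) were called lower of 7 metabotropic receptors, a count that was 1 without PI KO replicates 3, 5 or 6 or CL KO replicates 2, 3, 4 or 5. Among 13 cerebellins, neurexins and neuroligins 5 fell, with Cbln2 (-0.65) next to Cbln4. Of 13 GABA-A receptor genes 3 were called lower (median -0.20), among them Gabra4 (-0.20) and Gabrb2 (-0.19). With PI KO replicate 1 or CL KO replicates 2, 3, 4 or 5 left out, 1 were called.

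In the ion channel and pump lists every call was lower in PI KO. Of 59 potassium channel genes 13 were called lower and 0 higher (median -0.20), among them Kcnh3 (-0.58), Kcnh5 (-0.55) and the M-current subunit Kcnq3 (-0.51). Of 26 voltage-gated sodium and calcium channel genes 10 were called lower and 0 higher (median -0.29), among them Scn3b (-0.54), Cacna2d3 (-0.47) and Cacna1a (-0.39). Of 13 pumps and cotransporters 5 were called lower. This count was 3 without CL KO replicate 4. The sodium-calcium exchanger Slc8a2 (-0.48) and Slc12a5, the chloride exporter KCC2 of neurons (-0.32), fell.

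**Figure D5:**
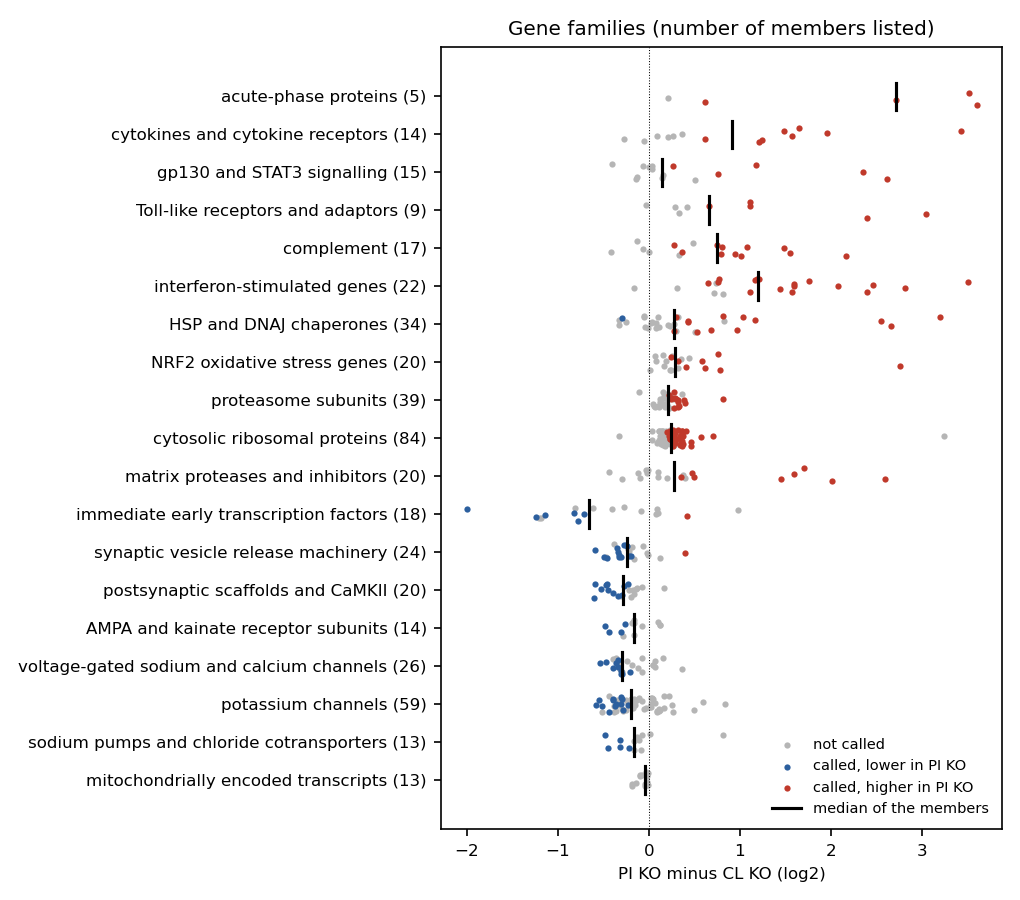
Difference between PI KO and CL KO (horizontal axis, log2) of each listed member of 19 gene families, red where called higher, blue where called lower and grey where not called, with medians as black bars. The families of immune response, stress and protein turnover have medians from 0.14 to 2.72, and the synaptic, channel and pump families have medians from -0.29 to -0.16.

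How many members passed depended on how the error was estimated. With a prior variance that did not follow the expression level, 739 genes were called in all. Among genes called higher, ribosomal proteins gave 9 in place of 41, mitochondrial ribosomal proteins 2 in place of 4, chaperones 3 in place of 13, phagocytic microglia genes 6 in place of 12, proteasome subunits 8 in place of 14, and NRF2 genes 4 in place of 8. Reticulum stress genes gave 3 in place of 7, cholesterol genes 2 in place of 7, annexins and their list 4 in place of 7, and the lipid efflux, TGF-beta, coagulation and activity effector lists 2 each in place of 4. Homeostatic microglia gave 1 in place of 3, and interneuron markers and antigen presentation 1 each in place of 2. Among genes called lower, the release machinery gave 5 in place of 13, scaffolds 5 in place of 11, potassium channels 6 in place of 13, sodium and calcium channels 6 in place of 10, immediate early factors 3 in place of 6, cerebellins and their list 3 in place of 5, and neuron markers and activity effectors 2 each in place of 5. Pumps and cotransporters gave 1 in place of 5, AMPA and kainate receptors and Wnt genes 1 each in place of 4, nuclear noncoding RNAs 1 in place of 3, and NMDA receptors, metabotropic receptors, endothelial markers and collagens 1 each in place of 2. GABA-A receptors and miR-7 targets gave 0 in place of 3, and matrix glycoproteins 0 in place of 2. The single calls Aqp4, Bcan, Igf2, Dusp8, Apoe, Ntrk2, Sv2c and Ndufc2 in their lists were lost as well. The counts of some lists moved little, with 14 reactive astrocyte genes, 16 interferon-stimulated genes, 8 cytokine genes and 4 acute-phase genes called. With both groups centred on their median genes, reticulum stress genes gave 3 in place of 7, GABA-A receptors 7 in place of 3, circadian genes 5 in place of 3 and axon guidance genes 5 called lower in place of 2. Some single calls became 2 when a library was left out. Interneuron markers called lower numbered 2 without PI KO replicates 3 or 4, and homeostatic microglia genes called lower 2 without PI KO replicate 4 or CL KO replicates 1 or 6. Fibroblast markers called higher numbered 2 without CL KO replicates 3 or 5, and those called lower 2 without CL KO replicates 1 or 6. Immediate early factors called higher numbered 2 without PI KO replicates 1 or 6, NF-kappaB genes 2 without PI KO replicates 1 or 4, glycolytic genes 2 without CL KO replicates 4 or 6, and chaperones called lower 2 without PI KO replicates 1, 3, 4 or 5 or CL KO replicate 6.

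Trophic, hormonal and clock genes gave scattered calls. Of 11 listed neurotrophic genes 3 rose, Ret (1.51), Fgf2 (1.14) and Gfra1 (0.49), and Ntrk2, the BDNF receptor, fell (-0.25). Of 19 circadian genes 3 were called lower. Hlf, a transcription factor of the clock output, stood at 316, 325 and 362 CPM in CL KO and 164, 186 and 198 CPM in PI KO, a change of -0.86 (SE 0.083, adjusted p = 6.28e-05), with no overlap, and Npas2 (-0.40) and Nr1d1 (-0.32) fell. Per1 (-0.28) and Dbp (-0.22) were not called. Of 18 glucocorticoid genes 4 rose and 2 fell, and the classical targets Fkbp5 (0.26), Sgk1 (-0.089) and Tsc22d3 (-0.12) were not called. Among 23 TGF-beta genes 4 rose, led by Id3 (0.55) and Tgfbr2 (0.46). Leaving out PI KO replicate 3 or CL KO replicate 5 gave 2. Of 29 Wnt genes 4 were called lower, led by the antagonist Frzb (-0.9997) and the receptor Fzd2 (-0.84). Without PI KO replicates 1, 2, 4 or 6 or CL KO replicates 1, 4, 5 or 6, 2 were called. Of 61 axon guidance genes 1 rose and 2 fell. Those called higher numbered 0 without CL KO replicates 1, 3 or 4, and those called lower 4 without PI KO replicates 1 or 4.

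Some genes tied to the ciRS-7 network in earlier work were called lower. Of 14 miR-7 targets 3 were called lower (21.4%, against 4.94% of all genes) and 0 higher (median -0.16). They were Nr4a3 (-0.78), Pak1 (-0.22) and Cplx1 (-0.22). The call count was 0 to 1 when PI KO replicates 1, 2, 3, 5 or 6 or CL KO replicates 1, 2, 3, 4 or 5 was left out. Irs2 (-0.27) and Egfr (-0.093) were not called. Cyrano, listed as Oip5os1, was not called (-0.10, adjusted p = 0.264). Of 9 nuclear long noncoding RNAs 2 rose and 3 fell. Neat1, the scaffold of paraspeckles, stood at 70.1, 78 and 94.9 CPM in CL KO and 117, 124 and 134 CPM in PI KO, a change of 0.64 (SE 0.11, adjusted p = 0.0037), with no overlap, and Gas5 rose by 0.36. Meg3 (-0.43), Miat (-0.42) and Rian (-0.25) fell, and Malat1 was not called (-0.14). When PI KO replicates 2 or 3 or CL KO replicates 2, 3, 4 or 5 was left out, 1 passed.

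The 12 largest increases with groups apart were, beside genes above, Gm49339 (4.11), a gene model that covers the immune receptor genes Lilr4b and Lilrb4a on the same strand, and Tubb6, a tubulin that stood at 0.314, 0.442 and 0.687 CPM in CL KO and 2.23, 6.06 and 7.01 CPM in PI KO, a change of 3.44 (SE 0.51, adjusted p = 0.00123). Levels of 3 reads or so in CL KO underlie several of these. The 12 largest decreases were, beside Egr2, Cbln4, Lamc3 and Nr4a2, led by Ankrd63, at 6.44, 7.38 and 7.85 CPM in CL KO and 1.68, 2.2 and 2.53 CPM in PI KO and -1.77 (SE 0.21, adjusted p = 0.000302). Its groups were apart. Olfr78 (-1.46), Kirrel2 (-1.40), Otof (-1.19) and Cited4 (-1.19) were also among them. So were 2 gene models within known genes, Gm37069 (-1.29), opposite Capn2, whose reads cannot be told apart where strand was not used, and Gm42888 (-1.20), inside Kctd8 on the same strand, which strand does not separate. The calls of Nr4a2 and Cited4 were lost without PI KO replicates 2 or 3 or any 1 CL KO library. That of Gm37069 was lost without PI KO replicates 2 or 3 or CL KO replicates 1, 2, 3 or 5.

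A response to occlusion was also measured in WT, and the test took the difference of the 2 changes, with 6 other animals for WT and no shared library. Of 14211 genes that both tables list, 0 passed by the trimmed-mean test, 646 (4.55%) had an unadjusted p under 0.05, and limma on the drawn-in values called 1940. The smallest unadjusted p belonged to Hibadh, an enzyme of valine breakdown, which changed by 0.43 (SE 0.073, adjusted p = 0.00307) in KO and by -0.066 (SE 0.078) in WT. The difference for Hibadh was 0.49 (SE 0.10, adjusted p = 0.992). Next came the gene models Gm20390, which overlaps Nme1 and Nme2 (0.93 in KO, 0.019 in WT), and Gm36952, inside Adgrb3 (-0.44 in KO, -6.4e-05 in WT).

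For genes described above, the change in WT stands beside that in KO. Serpina3n changed by 2.72 in KO and 2.54 in WT, Gfap by 2.19 and 1.88, and Osmr by 2.62 and 2.51. Camk2a changed by -0.59 and -0.44, and Lamp5 by -1.03 and -1.21. Among interferon-stimulated genes, Gbp2 changed by 2.81 in KO and 2.28 in WT, Ifit1 by 2.08 and 1.67, and Ifit3 by 1.60 and 1.04. The difference for Ifit3 was 0.56 (SE 0.20, adjusted p = 0.992). Egr2 fell by 1.995 in KO and changed by -1.03 in WT, where it was not called (adjusted p = 0.07), and the difference was -0.97 (SE 0.52, adjusted p = 0.992). Cdr1os changed by -0.39 in KO and -0.052 in WT, a difference of -0.34 (SE 0.10, adjusted p = 0.992). None of the differences given here passed the adjusted threshold.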

How the data were processed

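Per the labels' protocols, cortex RNA was taken up in TRIzol and cleared of DNA (TURBO DNA-free), RiboCop removed ribosomal RNA and CORALL was the library kit. The authors deposited log2 CPM values, per the file headers and names, in 1 table for each pair of groups. The submitters' processing notes name the build mm10. Aligner, counting, use of strand, annotation, gene filter and scaling are not given in the sources used here. Each of the 12 columns of the KO table, and of the WT table used for the interaction, matched the description of 1 sample (0 unused columns).

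In 100% of genes the 2 lowest values of a group were equal, and so were the 2 highest. The tied value was taken as a quartile, 0.75 times the second value from the end plus 0.25 times the next. This rule was assumed and not tested, and it leaves 4 of 6 values recoverable. A moderated trimmed-mean test used their mean and the Winsorized sum of squares, with 3 degrees of freedom a group. Its errors were moderated with limma 3.58.1 in R 4.3.3, with a trend over expression, and p-values were two-sided and adjusted by Benjamini-Hochberg over all genes of the table. In simulated data with changed genes, false calls of this test exceeded the nominal share. Alternatives were limma on the deposited values, the same with the animal as a block, a prior variance without a trend, 2 other scalings, a filter at a mean of 1 log2 CPM, log2(CPM + 1) and, added after seeing the data, leaving out each library.

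The labels name 1 animal for each CL and PI pair, which makes the numbers a pairing. Deviations of the paired libraries correlated by -0.00928 to 0.166 over the 6 animals. A paired test of the recovered values could not be made, because the animals behind the end values are unknown.

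Members and the 77 gene lists were chosen with earlier results of these data known, so list counts are descriptions. Named were the 12 called genes with the largest change each way and groups apart, genes marked as leading in a list, up to 3 called members per list and direction, and the 3 smallest interaction p-values. A further 72 genes were named after their values were seen. Summed marker levels use the deposited values. Low values were whole multiples of 1 read within 0.03 read for 69.7% to 87.6% of values up to 3 CPM in each library, which set the depth, and limits of 3 reads cover counting error only. Positions are from GENCODE M21 on GRCm38, which matched 13981 of 14338 symbols, and 357 did not match. Promoter windows are RefSeq, GRCm38.p6, without those on chromosome 18, and the tandem GAAA element was added to the motifs after seeing the data. Some genes are not reported here.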

Additional observations from a re-analysis of the deposited data

Results flagged for a closer look

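CL KO replicate 5 was sequenced to an effective depth of 10.3 M reads, while the other 5 CL KO libraries had 6.54 to 7.5 M reads. Its gap to the next library was 0.745 of the range of the group, above the critical value of Dixon's test for 6 samples. Depth and the summed levels of 18 marker lists were examined in both groups, 38 sets of 6 in all. Chance flags about 1 in 20 of ordinary sets, but the marker sums use deposited values whose ends are drawn in. That rate does not hold for the sums, so the lack of a flag among them says little. In this library 69.7% of low values were whole reads, fewer than in the other libraries, and the test called 900 genes without it.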

How the results depend on the processing

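Of 14338 genes the trimmed-mean test called 1440, and 366 calls fell in the gene lists. A prior variance without a trend gave 739 and 206. Median centring, TMM scaling, the filter at a mean of 1 log2 CPM and log2(CPM + 1) gave 1444 to 1606 and 360 to 369. Limma on the deposited values, whose spread is drawn in, gave 6666 and 869, and 1940 genes for the interaction, for which the trimmed-mean test called 0 in each alternative it was run with. With the animal as a replicate block, which pairs CL with PI, limma on the deposited values gave 6759 and 889, and 1895 for the interaction, and it kept each of the 226 named calls. Leaving out each library gave 900 (without CL KO replicate 5) to 1602 genes, with 922 without PI KO replicate 2, and 250 to 372 list calls; the interaction was not refitted without single libraries. Of the 226 named genes called, 161 stayed called when each library was left out and 146 in every alternative, while 72 named genes were not called. The cause of these shifts was not tested.

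The signs of 12 uncalled genes turned. With median centring the log2 change was -0.0061 for Cldn5, -0.0011 for Jak2, -0.031 for Mt3 and -0.026 for Neurod2. With single libraries left out, the lowest and highest values were -0.074 to 0.19 for Cldn5, -0.11 to 0.0028 for Cux2, -0.10 to 0.13 for Ddit3, -0.079 to 0.0039 for Gad1, -0.0028 to 0.10 for Gapdh and -0.0011 to 0.097 for Jak2. They were -0.014 to 0.0069 for Lifr, -0.026 to 0.052 for Mt3, -0.027 to 0.044 for Neurod2, -0.12 to 0.12 for Trbc2, -0.052 to 0.024 for Vegfa and -0.067 to 0.030 for mt-Co2. The 3-read floor of a library was 0.291 to 0.558 CPM, below which levels were not told from 0.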
